A study of Mus musculus with 273 samples.

Results

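The miR-23, miR-27 and miR-24 miRNAs come from a pair of paralogous clusters, and their 6 hairpins were followed here through 4 mouse tissues and the hours of the day. The members were fixed by name as mmu-mir-23a, mmu-mir-27a and mmu-mir-24-2 of the first cluster and mmu-mir-23b, mmu-mir-27b and mmu-mir-24-1 of the second, which are 6 of the 1226 hairpins in the count tables. Small RNA libraries were made from liver (77 libraries), hypothalamus (72), right cortex (78) and right striatum (46) of wild-type C57BL/6J males, an inbred laboratory strain, all aged 26 weeks, with no treatment named in the labels. Animals were taken every 3 h from 0 to 36 h, and times 24 h apart share a Zeitgeber time (ZT, the time point modulo 24 h). The 273 libraries carry 79 animal codes, and 78 of these codes appear in more than 1 tissue, so the tissues are largely samples of the same mice.

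A miRNA is cut from a hairpin precursor and guides Argonaute to messenger RNAs that pair with its seed, the bases near its 5′ end. The clusters are each transcribed as 1 precursor with 3 hairpins in the order miR-23, miR-27, miR-24. Their miRNAs are known from endothelial cells and vessel growth, miR-27 also from lipid metabolism in liver and fat, and miR-27b has been reported to target the clock gene Bmal1 in liver.

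The first cluster lies on the plus strand of mouse chromosome 8 (GRCm38), with mir-23a at chr8:84208518-84208592, mir-27a at chr8:84208672-84208758 and mir-24-2 at chr8:84208815-84208921, a span of 404 nt. No annotated gene covers mir-23a or mir-27a in GENCODE vM21, while mir-24-2 touches the long non-coding gene Gm26532 and lies over the antisense hairpin Mir3074-2. The second cluster lies on the plus strand of chromosome 13, with mir-23b at chr13:63300484-63300557, mir-27b at chr13:63300712-63300784 and mir-24-1 at chr13:63301208-63301275, a span of 792 nt. All 3 sit inside the protein-coding gene 2010111I01Rik on the same strand, mir-23b within introns and mir-27b and mir-24-1 within introns of most transcripts and exons of some. The gene Fancc covers this stretch on the other strand, and Mir3074-1 lies antisense to mir-24-1. Whether the counting used strand is not given in the sources used here. Mir3074-2 and Mir3074-1 took little: mmu-mir-3074-2 averaged 0 to 0.0449 CPM (a count divided by its library's total, on a scale shared by all libraries) over the tissues and mmu-mir-3074-1 0.294 to 1.60.

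The mature sequences (RefSeq, GRCm38.p6), with the seed (bases 2 to 8) in capitals, show how alike the members are and which counts could be divided between loci.
mmu-miR-23a-3p: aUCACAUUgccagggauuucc
mmu-miR-27a-3p: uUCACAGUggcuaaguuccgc
mmu-miR-27b-3p: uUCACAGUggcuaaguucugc
mmu-miR-24-3p: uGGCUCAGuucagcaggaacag
For miR-23b the hairpin is shown, with the stretch it shares with the start of miR-23a-3p in capitals.
mmu-mir-23b: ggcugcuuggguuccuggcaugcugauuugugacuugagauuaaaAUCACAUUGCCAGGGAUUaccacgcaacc

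miR-27a-3p and miR-27b-3p carry the same seed and differ by a single substitution, C19U, counted from 1 at the 5′ end. miR-23a-3p and the matching stretch of the mir-23b hairpin differ by U19A. The first 8 bases of miR-23a-3p and miR-27a-3p differ by A1U and U7G, so the miR-23 and miR-27 seeds are 1 base apart. miR-24-3p is the same molecule from both loci: its 22 bases are present whole in mir-24-2 and mir-24-1, inside a shared stretch of 28 bases. The longest stretch that mir-23a shares with mir-23b is 20 bases, and mir-27a also shares 20 with mir-27b. How reads that match both places were assigned is not given, so the division of counts between mir-24-1 and mir-24-2 is uncertain, and that of short reads between the other pairs could be affected. Whether such reads were counted at all is not given either, so the total of the miR-24 counts is uncertain too. A hairpin count also adds both arms of the hairpin, so the values belong to hairpins, not to single mature miRNAs.

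Library totals lay between 1164449 and 4980887 counts for cortex, 26341 and 4022070 for striatum, 1079380 and 3954710 for hypothalamus, and 1988671 and 5236177 for liver. A total of 13 libraries stood apart, by a total under 500000 or by a low rank correlation with the rest of their tissue: 5 of striatum, 4 of cortex, 3 of hypothalamus and 1 of liver. Sorted by library number, the libraries fell into 14 runs that each carry a single L code, whose meaning the labels do not state. Brain libraries were in runs 1 to 10 and liver libraries in runs 10 to 14. The tissue labels held against marker miRNAs: the summed level of 5 hepatocyte markers was 248984 to 355747 CPM in liver and at most 7511 CPM in brain, and 11 neuronal markers summed to at least 2362 CPM in each brain library and at most 29.4 CPM in liver, where 6 of them were at 0 in all libraries. Markers of choroid plexus and other epithelia (10 hairpins) ranged from 8921 to 109727 CPM in striatum.

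All 6 hairpins were detected in every library, apart from mir-24-1 in 1 striatum library (ZT9 replicate 6), which held 26341 counts in all, so that its count of 0 allows up to 114 CPM. mir-27b was by far the most abundant. Its lowest, median and highest library had 29745, 39006 and 48391 CPM in cortex, 26095, 33071 and 42193 CPM in striatum, 15811, 21004 and 34801 CPM in hypothalamus and 15782, 26709 and 32075 CPM in liver. Of the brain regions, cortex lay highest and hypothalamus lowest, with ranges that overlap in each pair of tissues. CPM here is scaled by library totals, and the place of liver beside brain depends on that scaling. Among all hairpins mir-27b ranked 9th in liver, 8th in hypothalamus, 6th in striatum and 5th in cortex, and it held 91.8% ± 1.04 (SD, n = 78) of the counts of the 6 hairpins in cortex and 94.4% ± 1.10 (SD, n = 46) in striatum. The 6 together took 4.29% ± 0.397 (SD, n = 78) of all counts in cortex, 3.59% ± 0.384 (SD, n = 46) in striatum, 2.35% ± 0.369 (SD, n = 72) in hypothalamus and 2.81% ± 0.261 (SD, n = 77) in liver.

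mir-23b came next, with 1123, 1709 and 2134 CPM for the lowest, median and highest library of cortex, 472, 1062 and 1674 CPM in striatum, 368, 648 and 972 CPM in hypothalamus and 675, 845 and 1358 CPM in liver. Every cortex library was above every hypothalamus library for this hairpin. mir-23a had 316, 711 and 1046 CPM in cortex, 174, 358 and 690.0 CPM in striatum, 233, 333 and 503 CPM in hypothalamus and 204, 256 and 440.4 CPM in liver. mir-27a had 416, 732 and 1336 CPM in cortex, 321, 472 and 852 CPM in striatum, 358, 458 and 1046 CPM in hypothalamus and 368, 643 and 910.2 CPM in liver. For both, the tissues overlapped.

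The miR-24 hairpins were the least counted. Since reads that match both loci may have been left out, this cannot be read as a low level of miR-24. mir-24-2 had 91.3, 294 and 374 CPM for the lowest, median and highest library of cortex, 60.1, 99.7 and 170.0 CPM in striatum and 93.2, 115 and 154 CPM in liver, while in hypothalamus the lowest was 53.6 CPM, the median 90.6 CPM and the mean 89.8 CPM ± 18.9 (SD, n = 72). mir-24-1 had 8.52, 26.4 and 39.0 CPM in cortex, 0, 8.40 and 27.7 CPM in striatum, 1.96, 6.27 and 14.9 CPM in hypothalamus and 0.665, 3.49 and 9.84 CPM in liver. Only 2 to 38 reads of mir-24-1 were counted per liver library, so its single values there carry a large counting error. Per 100 nt of hairpin, the mean level in cortex was 53932 CPM for mir-27b, 2300 CPM for mir-23b, 944 CPM for mir-23a, 924 CPM for mir-27a, 266 CPM for mir-24-2 and 38.3 CPM for mir-24-1. In liver the same order held except that mir-27a, at 721 CPM per 100 nt, stood above mir-23a, at 350.3. The cortex order of mir-23a and mir-27a turned on the division by length: by mean CPM, mir-27a was above mir-23a there too (804 against 708 CPM). The mature sequences annotated in the 6 hairpins are 21 to 23 nt long, and the hairpins 68 to 107 nt. Counts therefore need not scale with hairpin length.

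**Figure D1:**
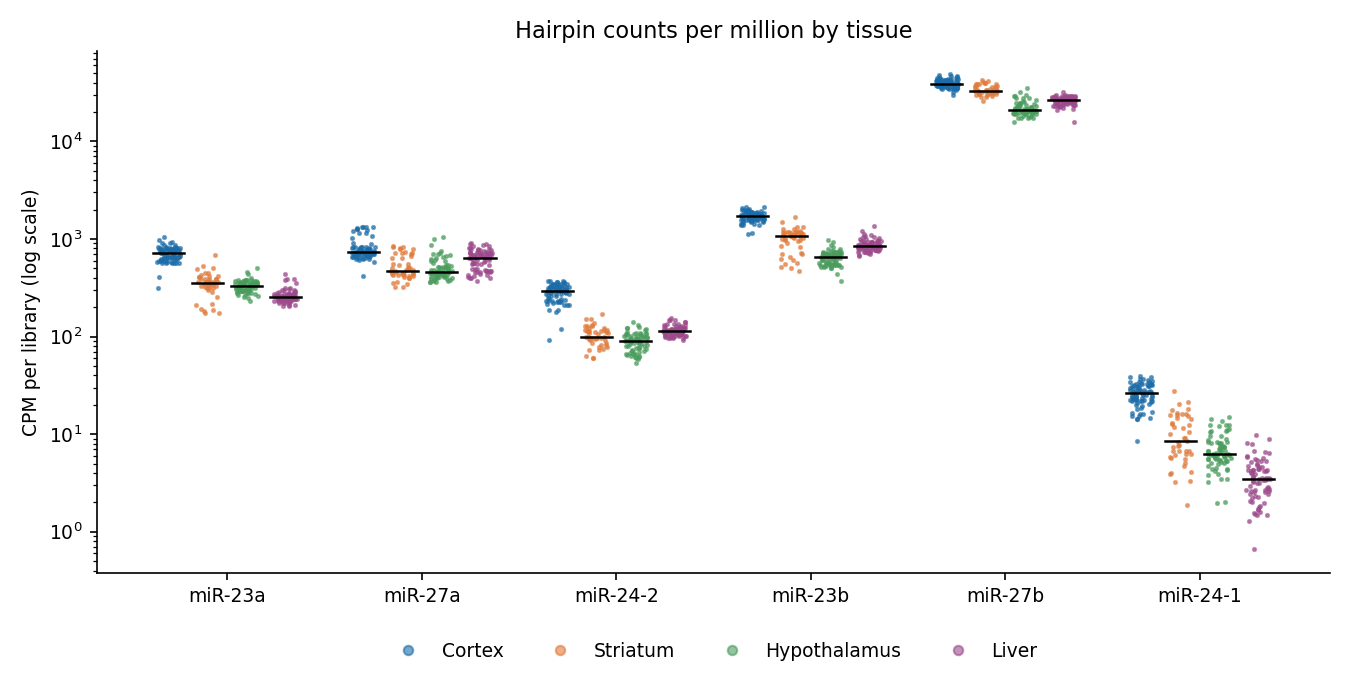
CPM of each hairpin (log axis) in every library, grouped by tissue; points are libraries and bars are medians, and the striatum library with no mir-24-1 count is not drawn for that hairpin. The median of mir-27b is between 21004 and 39006 CPM in all 4 tissues, while the median of mir-24-1 is 26.4 CPM or less.

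Among the brain regions, all 6 hairpins were highest in cortex. With edgeR's quasi-likelihood test over all libraries, adjusted by Benjamini and Hochberg over 441 hairpins, and a call that also needed a log2 ratio of at least 1, mir-24-2, mir-24-1 and mir-23a were called higher in cortex than in striatum, 3 of 6, beside 6.12% of all hairpins called in that direction and 13.8% in either. mir-24-2 was higher by 1.46 ± 0.05 (log2, SE), 2.75-fold, mir-24-1 by 1.32 ± 0.10 and mir-23a by 1.01 ± 0.05. mir-23a sat at the size threshold: with the animal or the replicate number as a block, or library run as a term, its log2 ratio was 0.99, and the call was lost. mir-23b was higher by 0.78 ± 0.05, mir-27a by 0.58 ± 0.07 and mir-27b by 0.20 ± 0.04, each under the size threshold. By adjusted p alone all 6 passed (edgeR, at most 1.38e-05), beside 74.6% of all hairpins.

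Against hypothalamus, 4 of 6 were called higher in cortex, beside 9.98% of all hairpins in that direction and 28.1% in either. The log2 ratios were 1.87 ± 0.09 (SE) for mir-24-1, 1.68 ± 0.04 for mir-24-2, 1.43 ± 0.04 for mir-23b and 1.12 ± 0.04 for mir-23a. mir-27b was higher by 0.86 ± 0.04 and mir-27a by 0.69 ± 0.07, under the size threshold, and by adjusted p alone all 6 passed, beside 87.1% of all hairpins. Scaled by DESeq2's size factors, mir-23a fell under that threshold in both comparisons, at 0.88 against striatum and 0.87 against hypothalamus.

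Between striatum and hypothalamus 0 of 6 were called (edgeR and DESeq2), beside 13.4% of all hairpins. By p alone 5 of 6 passed, adjusted (beside 74.6% of all hairpins) or not, all higher in striatum. mir-27b was higher by 0.66 ± 0.04 (log2, SE), mir-23b by 0.65 ± 0.05 and mir-24-1 by 0.55 ± 0.11, whereas mir-24-2 differed by 0.23 ± 0.05, mir-23a by 0.11 ± 0.05 and mir-27a by 0.11 ± 0.08, the last with an interval of -0.04 to 0.26 and an adjusted p of 0.169 (edgeR). The differences were larger for mir-23b and mir-27b than for their seed partners mir-23a and mir-27a, which the ratios within libraries test.

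Vessel miRNAs were read beside these differences, since cells of the vessel wall are a known site of the clusters. The 3 endothelial and mural markers, miR-126a, miR-143 and miR-145a, were all detected and summed to 21543, 37864 and 47531 CPM for the lowest, median and highest cortex library, 20801, 26294 and 43976 CPM in striatum, 19418, 24221 and 44914 CPM in hypothalamus and 52493, 60828 and 82264 CPM in liver. They moved with the clusters among the brain regions, being highest in cortex. The 11 neuronal markers did so too and over a wider range, with median sums of 22238 CPM in cortex, 9273 CPM in striatum and 4044 CPM in hypothalamus. The 5 blood cell markers had the same order, with median sums of 4586, 4084 and 3506 CPM. The 3 oligodendrocyte markers were highest in striatum (median sum 8660 CPM) and the 10 choroid plexus and epithelial markers in hypothalamus (20509 CPM). The part of any list in the result was not tested. Of a longer list of 8 vessel-linked hairpins, 6 were tested, and 0 were called between cortex and striatum and 2 higher in cortex than in hypothalamus, miR-221 by 1.66 and miR-222 by 1.21 (log2). The median log2 ratio of the list was 0.66 against striatum, where that of all hairpins was -0.07, and 0.56 against hypothalamus, where that of all was also -0.07. In bulk tissue, fewer cells of a type and less RNA per cell cannot be told apart.

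The brain and liver libraries differ so widely that the size and direction of a brain-to-liver ratio turned on the scaling. With TMM scaling the median hairpin was 0.97 higher in cortex than in liver (log2), with DESeq2's size factors 1.36 and with library totals 3.11. A change of scaling shifts all hairpins together, so relative to that median the 6 hairpins were placed alike under these 3 scalings by construction. Their log2 ratio to liver minus that of the median hairpin was -2.77 to -0.31 for cortex, -3.50 to -1.78 for striatum and -3.67 to -2.28 for hypothalamus. So all 6 leaned towards liver more than the median hairpin did, and mir-24-1 the least in each case. That median is over the 441 hairpins of the shared fit, whereas for rhythm 241 hairpins were tested in liver and 393 in cortex. What part the choice of hairpins has in the lean was not tested. With TMM, 3 of 6 were called lower in cortex than in liver (beside 29.5% of all hairpins in that direction and 79.1% in either), 5 of 6 lower in striatum (31.1% and 82.3%) and 6 of 6 lower in hypothalamus (31.5% and 82.1%). With library totals, 11 of these 18 ratios changed direction (mir-27b in cortex from -1.57 to 0.59, mir-23a in cortex from -0.72 to 1.43), so no direction of level between brain and liver is drawn from them.

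The ratio of a pair of hairpins within a library does not depend on that scaling, and hairpin length cancels when the same ratio is compared between tissues. The miR-23 pair gave the clearest order. The median mir-23b to mir-23a ratio was 1.95 in hypothalamus, 2.45 in cortex, 2.93 in striatum and 3.33 in liver, with ranges of 1.58 to 2.33, 1.97 to 3.55, 2.09 to 3.57 and 2.72 to 4.11. Every hypothalamus library was below every liver library. Within animals, the log2 ratio was lower in hypothalamus than in liver in 71 of 71 animals, by 0.77 ± 0.02 (SE), lower in cortex than in liver in 77 of 77, by 0.44 ± 0.02, and higher in striatum than in hypothalamus in 43 of 43, by 0.54 ± 0.03. Cortex was above hypothalamus in 71 of 72 animals by 0.33 ± 0.02, striatum above cortex in 34 of 45 by 0.20 ± 0.04, and liver above striatum in 37 of 44 by 0.22 ± 0.03. A two-sided sign-flip permutation test over animals, with 100000 resamples and adjustment over 30 tests (5 ratios, 6 pairs of tissues), gave adjusted p-values of 4.74e-05 for cortex against striatum and 1.87e-05, the smallest it can give, for the other 5. In each run that held both tissues the order was the same: 9 of 9 runs for cortex above hypothalamus, 8 of 8 for striatum above hypothalamus and 8 of 8 for striatum above cortex. Liver and brain share only run 10, through 1 hypothalamus library, where hypothalamus was 0.86 lower.

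The other pairs moved differently. The median mir-27b to mir-27a ratio was 42.5 in liver, 44.9 in hypothalamus, 51.3 in cortex and 68.0 in striatum. Striatum was higher than hypothalamus in 39 of 43 animals by 0.60 ± 0.07 (log2, SE) and higher than liver in 40 of 44 by 0.61 ± 0.07, each with an adjusted permutation p of 1.87e-05. Hypothalamus and liver differed by 0.02 ± 0.05, with an adjusted permutation p of 0.635. Striatum was above hypothalamus in 8 of 8 shared runs, but it shares no run with liver, and the run means of this log2 ratio spread from 5.59 to 6.41 in striatum and from 5.05 to 5.71 in liver, so run and tissue cannot be told apart there. The share of miR-24 counts placed at mir-24-1 was 8.47% ± 1.87 (SD, n = 78) in cortex, 8.63% ± 3.79 (SD, n = 46) in striatum, 7.23% ± 2.16 (SD, n = 72) in hypothalamus and 3.12% ± 1.43 (SD, n = 77) in liver. The log2 ratio of mir-24-1 to mir-24-2 was higher in cortex than in liver in 75 of 77 animals by 1.56 ± 0.08, in striatum in 42 of 44 by 1.44 ± 0.14 and in hypothalamus in 64 of 71 by 1.34 ± 0.10, each with an adjusted permutation p of 1.87e-05. So against mir-24-2, mir-24-1 stood lower in liver, whereas against mir-23a, mir-23b of the same locus stood higher there. How much of the miR-24 counts is the shared miR-24-3p is not known. For the miR-24 ratio too, cortex and striatum share no run with liver, so run and tissue cannot be told apart. Its log2 run means were -5.30 to -4.29 in liver, -4.24 to -3.30 in hypothalamus, -4.10 to -2.74 in striatum and -3.85 to -3.16 in cortex. In run 10, the 1 hypothalamus library was 1.61 above liver.

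Within a cluster, the balance of miR-27 to miR-23 also differed by tissue. The log2 ratio of mir-27b to mir-23b averaged 4.53 ± 0.20 (SD, n = 78) in cortex, 5.13 ± 0.46 (n = 46) in striatum, 5.10 ± 0.27 (n = 72) in hypothalamus and 4.93 ± 0.29 (n = 77) in liver, and cortex was below hypothalamus in 69 of 72 animals by 0.56 ± 0.04 (log2, SE). The median ratio of mir-27a to mir-23a was 2.54 in liver, 1.40 in hypothalamus, 1.32 in striatum and 1.10 in cortex, and cortex was below liver in 74 of 77 animals by 1.07 ± 0.06. Both have an adjusted permutation p of 1.87e-05. For mir-27a to mir-23a, cortex and liver share no run, so run and tissue cannot be told apart: the run means of the log2 ratio were -0.10 to 0.66 in cortex and 0.79 to 1.48 in liver. In run 10, the 1 hypothalamus library was 0.35 below liver (difference -0.35), where the mean over animals was -0.64 ± 0.06. Striatum and hypothalamus did not pass the test in either ratio, with differences of 0.11 ± 0.09 and 0.05 ± 0.11. In all, 25 of the 30 ratio tests passed the threshold of 0.05. Ratios of other pairs of hairpins were not tested, so no share over all pairs stands beside this count. Among single hairpins, 74.6% to 87.1% differed between brain regions by adjusted p alone (edgeR).

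**Figure D2:**
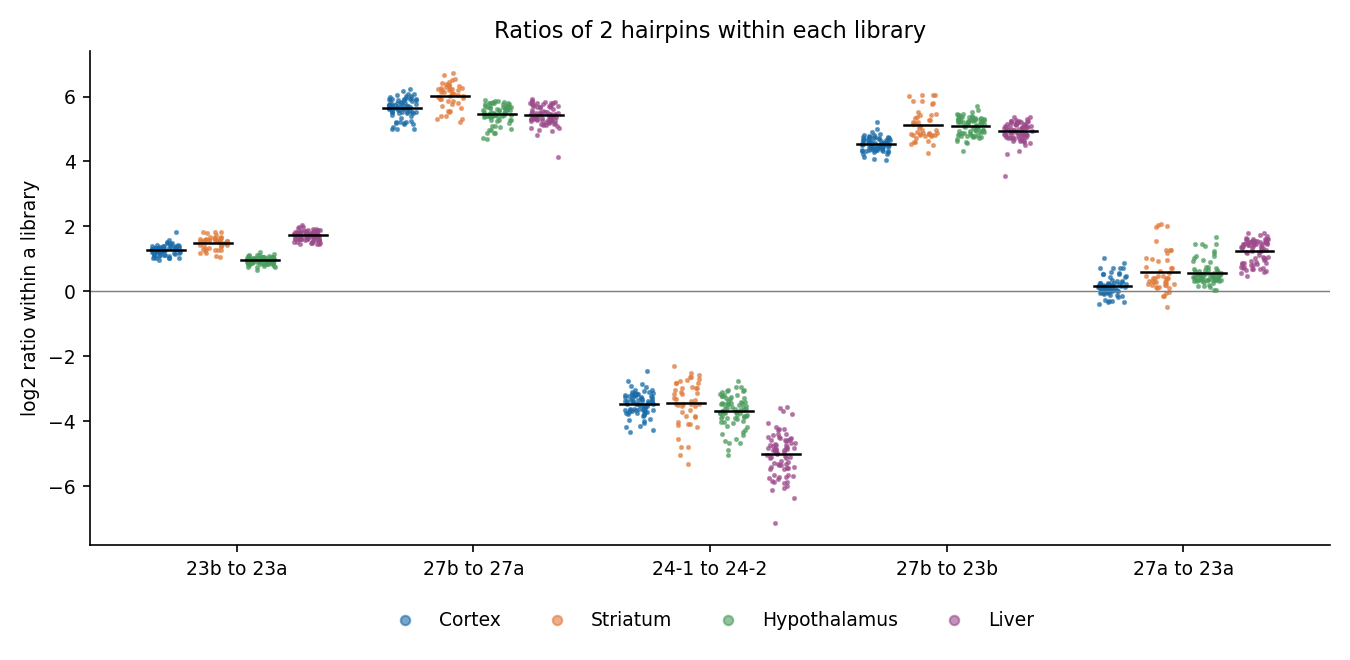
Log2 ratio of 2 hairpins within each library, by tissue; points are libraries and bars are means. The mir-23b to mir-23a ratio has means of 0.95 in hypothalamus, 1.28 in cortex, 1.50 in striatum and 1.72 in liver, and the mir-24-1 to mir-24-2 ratio is lowest in liver, with a mean of -5.02.

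Across the libraries of a tissue, r was higher between the miR-23 hairpins, which lie on different chromosomes, than between any neighbours in a cluster, in each of the 4 tissues. Pearson's r of log2 CPM between mir-23a and mir-23b was 0.86 in cortex (78 libraries), 0.90 in striatum (46), 0.90 in hypothalamus (72) and 0.76 in liver (77), and 0.87, 0.89, 0.88 and 0.73 once each library was set against its run's mean. Between mir-23b and mir-27b of 1 precursor it was 0.17, 0.03, 0.29 and -0.42 in the same order of tissues. Centred on run these were 0.28, 0.30, 0.58 and -0.40, and the uncentred liver value was -0.25 without the library that stood apart. Between mir-23a and mir-27a r was 0.58, -0.09, 0.21 and 0.25. For mir-27a and mir-27b it was 0.52, 0.39, 0.52 and 0.54, and for mir-24-2 and mir-24-1 0.58, 0.19, 0.52 and 0.23. Centring on run raised the values for mir-23a and mir-27a to 0.76, 0.42, 0.54 and 0.51, and those for mir-27a and mir-24-2 from 0.50, 0.41, 0.45 and -0.18 to 0.77, 0.69, 0.66 and 0.42. These are descriptions over libraries that share tissue, run and scaling. The 20 bases that mir-23a and mir-23b share hold the seed of miR-23, and the assignment of short reads to these loci is not known.

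**Figure D3:**
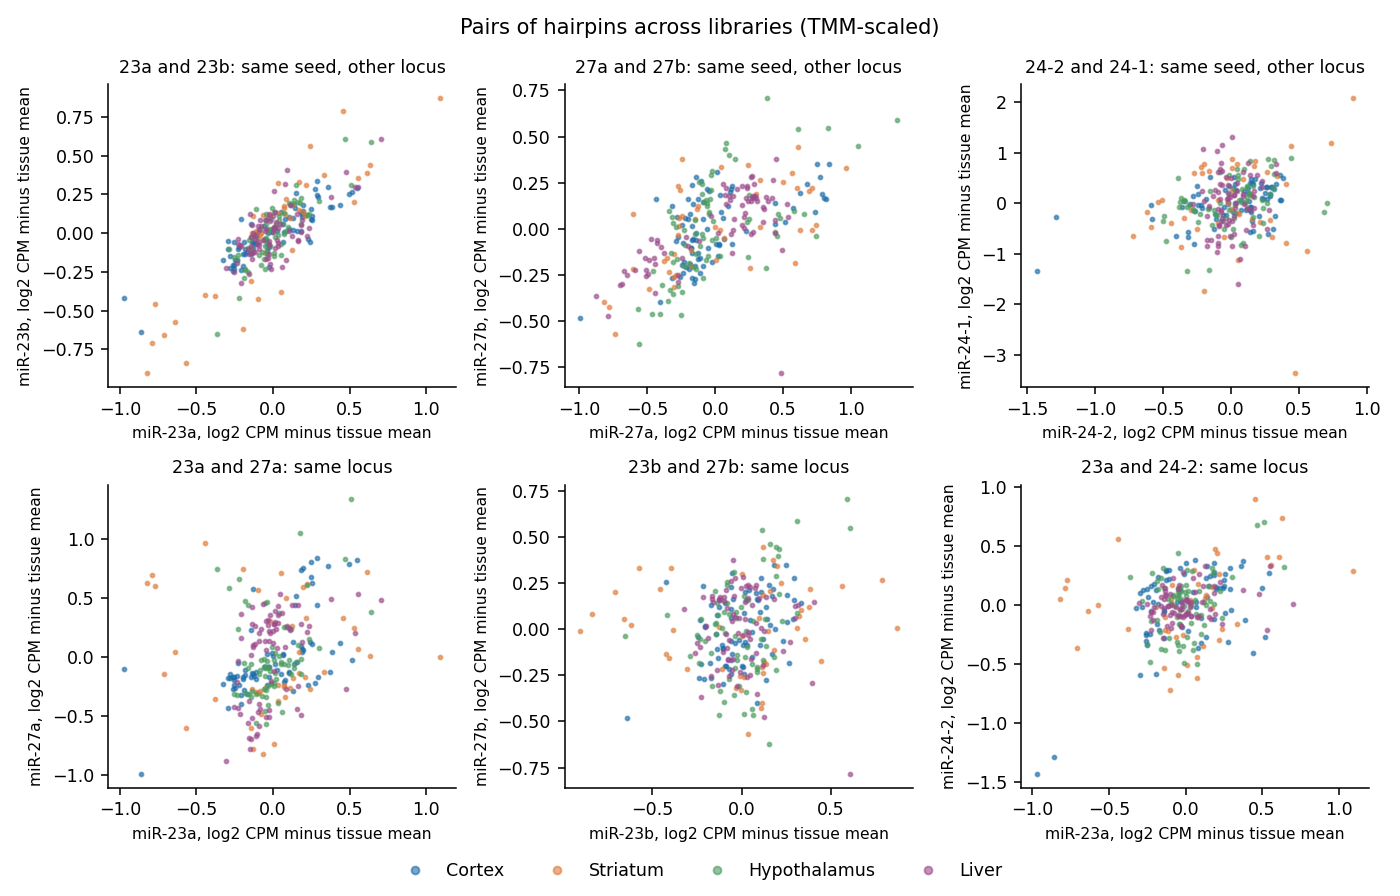
TMM-scaled log2 CPM of 6 pairs of hairpins, each minus its tissue mean, with 1 point per library coloured by tissue; the upper row pairs hairpins with the same seed and the lower row neighbours in a cluster. The points of mir-23a and mir-23b lie close to a line and those of mir-23b and mir-27b do not. For CPM scaled by library totals, not by TMM as drawn, r within tissues was 0.76 to 0.90 for mir-23a and mir-23b. For mir-23b and mir-27b it was -0.42 to 0.29, or -0.40 to 0.58 centred on run.

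Among hairpins other than the members themselves, those nearest to each member across libraries were named by the highest r in each tissue. This was done for members averaging at least 10 CPM. For mir-27b, miR-126a of endothelial cells was the nearest in cortex (r = 0.83 over 78 libraries, 0.56 within runs) and in striatum (0.76 over 46 libraries, 0.67 within runs), while in hypothalamus it was miR-192 (0.78 over 72 libraries, 0.68 within runs), with miR-126a not among the 3 nearest, and in liver miR-151 (0.78 over 77, 0.79 within runs). For mir-23b, miR-132 was the nearest in cortex (0.78, 0.82 within runs), let-7b in striatum (0.84, 0.83 within runs), miR-219a-2 in hypothalamus (0.77, 0.80 within runs) and miR-18a in liver (0.59, 0.63 within runs). For mir-23a these were miR-128-2 in cortex (0.81), miR-451a in striatum (0.85), miR-15b in hypothalamus (0.68) and miR-145a in liver (0.65). For mir-24-2, miR-497a was the nearest in all 3 brain regions (0.82, 0.62 and 0.67). For mir-27a, miR-132 was the nearest in cortex (0.84, 0.72 within runs), miR-30e in striatum (0.72, 0.19 within runs), miR-369 in hypothalamus (0.73, 0.12 within runs) and miR-99a in liver (0.84, 0.14 within runs). miR-369 was among its 3 nearest in every brain region (0.82, 0.70 and 0.73), but within runs r was -0.03, -0.10 and 0.12. Over the means of the 4 tissues, the hairpins closest in pattern were again taken from outside the members. They were let-7b for mir-23a (root mean square distance 0.18 in log2), let-7c-2 for mir-27a (0.11) and miR-148b for mir-27b (0.14). For mir-24-2 (0.17) and mir-23b (0.23) it was miR-195a.

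Over the day, mir-23b in liver was the member whose 24 h rhythm passed the test, 1 of 6, beside 12 of 241 hairpins (4.98%) in that tissue. The lowest, median and highest liver libraries had 755, 825 and 934 CPM at ZT0, 675, 806 and 962 CPM at ZT3, 739.9, 878 and 1117 CPM at ZT6, 723, 921 and 1358 CPM at ZT9, 737, 922 and 1218 CPM at ZT12, 764, 786 and 1069 CPM at ZT15, 769.8, 845 and 882 CPM at ZT18 and 680.0, 837 and 1086 CPM at ZT21. Medians were highest at ZT9 and ZT12, and the ranges of all ZT groups overlapped. The fitted cosine spanned 0.19 ± 0.05 (log2, SE) from trough to peak, 1.14-fold, with its peak at ZT11.6 ± 1.09 h and an adjusted p of 0.0237 (edgeR). The call was lost with library totals, the scaling of the CPM given here (0.20, adjusted p = 0.0704, edgeR), and without the filter for low counts (0.20, adjusted p = 0.0699, edgeR). It was also lost with ZT as a factor (adjusted p = 0.288, edgeR), with 0 to 21 h alone (0.13, adjusted p = 0.463, edgeR) and with 15 to 36 h alone (0.18, adjusted p = 0.273, edgeR). Removing 1 library ended it in 7 of 77 cases, with adjusted p-values of 0.0522 to 0.0835 (edgeR). These were ZT0 replicate 3, ZT6 replicate 2, ZT9 replicates 3 and 6, and ZT12 replicates 1, 4 and 7.

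The seed partner mir-23a had a fitted trough-to-peak ratio of 0.09 ± 0.06 in liver with an interval of -0.03 to 0.20 and a peak at ZT12.8 ± 2.91 h, and did not pass (adjusted p = 0.61, edgeR). A fitted log2 ratio of this kind cannot be negative, so a symmetric interval from its SE is only rough where the ratio is small. mir-24-1 had the largest fitted ratio of the 6 in liver, 0.67 ± 0.22 with a peak at ZT7.29 ± 1.11 h, and an adjusted p of 0.138 (edgeR); its medians ran from 2.04 CPM at ZT15 to 5.27 CPM at ZT9. mir-27b, mir-27a and mir-24-2 had 0.11 ± 0.07, 0.06 ± 0.11 and 0.04 ± 0.05. In the brain regions 0 of 6 passed in each by edgeR or DESeq2, with 0 at an unadjusted p under 0.05, beside 0.254% of hairpins called in cortex, 0.528% in striatum and 0.263% in hypothalamus. Fitted ratios were 0.02 to 0.20 in cortex, 0.05 to 0.66 in striatum and 0.04 to 0.19 in hypothalamus. The upper limits of their 95% intervals, rough for the same reason, reached 0.43, 1.34 and 0.46. In hypothalamus, mir-27b passed with the replicate number as a block (0.36, adjusted p = 0.00443, edgeR), where 61 of 380 hairpins were called, and not without it (0.18 ± 0.10, adjusted p = 0.999), where 1 of 380 was. With library run as a term, mir-27b there had a ratio of 0.06 and did not pass (adjusted p = 0.995, edgeR).

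**Figure D4:**
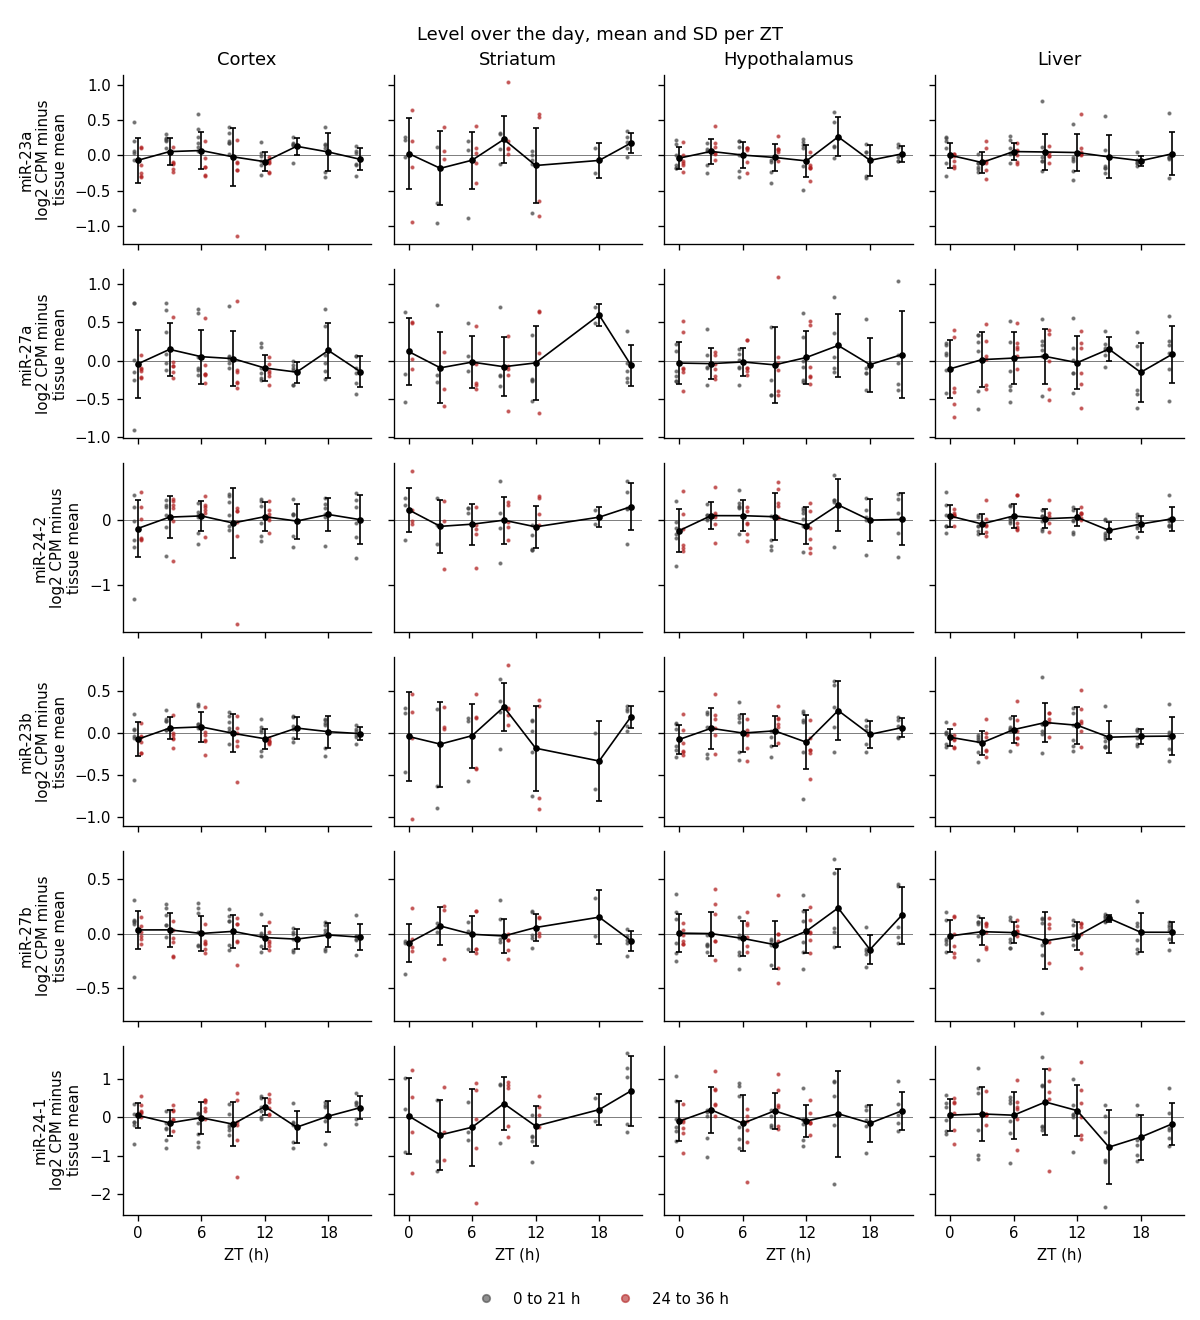
Log2 CPM minus the tissue mean against ZT for each hairpin (rows) and tissue (columns); points are libraries, grey for 0 to 21 h and red for 24 to 36 h, and black marks are means with SD per ZT (the library with no mir-24-1 count is not drawn). mir-23b in liver rises towards ZT9 and ZT12 by less than the spread of single libraries, and striatum has no library at ZT15.

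Whether rhythms differed between tissues was tested as an interaction. Libraries were fitted as independent, although the tissues come largely from the same mice, and no alternative of this test was blocked by animal. For mir-23b, cortex against liver gave a difference vector of 0.30 ± 0.08 (peak-to-trough, log2, SE) with an adjusted p of 0.0971, hypothalamus against liver 0.25 ± 0.09 (0.279) and striatum against liver 0.25 ± 0.15 (0.668), all by edgeR, so a difference from liver did not pass in any brain region. mir-24-1 passed for striatum against liver, 1 of 6, beside 2.10% of hairpins, at 1.38 ± 0.38 with an adjusted p of 0.0467 (edgeR). Its fitted peak was ZT19.2 ± 1.89 h in striatum and ZT7.29 ± 1.11 h in liver. The 5 striatum libraries of ZT21 had 18.0, 21.4, 27.7, 7.78 and 6.68 CPM, and those of ZT18 had 8.22 and 12.3 CPM. The 3 high ZT21 libraries were in runs 2, 2 and 3, the low ones in runs 5 and 9 and those of ZT18 in run 6; over all ZT, the striatum median of mir-24-1 was 15.7 CPM in runs 1 to 3 and 6.24 CPM in the other runs. With run as a term the call was lost (1.30, adjusted p = 0.0844, edgeR). The highest of the ZT21 libraries, replicate 3, is a library that stood apart, and without it the difference was 0.89 with an adjusted p of 0.422 (edgeR); it was also lost without ZT21 replicate 1 (0.0758) or replicate 2 (0.0927). DESeq2 did not call it. The other 5 pairs of tissues had 0 of 6 members called by edgeR or DESeq2. Beside them stood 1.47% of hairpins for cortex against liver (3 members at an unadjusted p under 0.05), 0.964% for hypothalamus against liver (1 member), 0.744% for striatum against hypothalamus (1 member), 0.478% for cortex against striatum (0 members) and 0% for cortex against hypothalamus (0 members). Ratios within libraries gave 0 of 20 rhythms past the threshold (permutation of ZT, two-sided), with 1 at an unadjusted p under 0.05, mir-24-1 to mir-24-2 in liver (peak-to-trough 0.59, p = 0.032, adjusted p = 0.363).

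For comparison, a list of 24 hairpins linked to the clock, chosen with earlier results of these data known, had 21 tested in liver and 3 called there: miR-29b-1 with 1.66 from trough to peak (log2), miR-142a with 0.56 and miR-185 with 0.26. The median of the list was 0.11 and that of all hairpins tested in liver 0.14. The vessel list had 0 of 6 called in liver (edgeR) with a median of 0.09.

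Each ZT from 0 to 12 was sampled in 2 passages, 24 h apart, and in cortex 5 of 6 members differed between the earlier one (0 to 12 h) and the later one (24 to 36 h), beside 30.7% of all hairpins. At ZT0 to ZT12, the lowest, median and highest of 30 cortex libraries of mir-23a were 407, 785 and 1046 CPM at 0 to 12 h, and those of 30 at 24 to 36 h were 316, 638 and 814 CPM. mir-23b had 1149, 1766 and 2134 CPM against 1123, 1600 and 2086 CPM. mir-27a had 416, 788 and 1319 CPM against 612, 711 and 1336 CPM. mir-27b had 29745, 41934 and 48391 CPM against 32166, 37402 and 43528 CPM, and mir-24-1 had 14.4, 22.8 and 36.8 CPM against 8.52, 28.0 and 39.0 CPM. The later passage was lower in 4 members and higher in mir-24-1, and all ranges overlapped.

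From the earlier to the later passage, mir-23a changed by -0.31 ± 0.06 (log2, SE, adjusted p = 0.00014, edgeR), mir-27a by -0.25 ± 0.09, mir-23b by -0.16 ± 0.04, mir-27b by -0.14 ± 0.05 and mir-24-1 by 0.22 ± 0.08 (adjusted p-values 0.0353, 0.00156, 0.0247 and 0.0293, edgeR). mir-24-2 changed by -0.03 ± 0.08 with an interval of -0.19 to 0.13. Among all hairpins, 13.1% were called lower and 17.6% higher in the later passage. With library run as a term 1 of the 6 remained past the threshold, mir-23a, and with the replicate number as a block 2, mir-23a and mir-23b. In the 6 runs that held both passages, mir-23a was lower in the later one in 5, mir-24-1 higher in 5, and mir-27a, mir-27b and mir-23b lower in 4. Runs 5 and 6 held 9 of the 30 earlier and 4 of the 30 later cortex libraries. Without ZT0 replicate 5, which stood apart, 3 of 6 were called: mir-27a (adjusted p = 0.0503, edgeR) and mir-24-1 (0.0719) no longer passed. Without all the libraries that stood apart, mir-24-1 passed (0.24, adjusted p = 0.00879, edgeR) and mir-27a did not (-0.20, adjusted p = 0.0885, edgeR). With library totals mir-27a did not pass either (-0.21, adjusted p = 0.0671, edgeR). mir-27a was lost in 5 and mir-24-1 in 11 of the 60 removals of 1 library, none of them with an adjusted p above 0.0722.

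In striatum, hypothalamus and liver 0 of 6 members were called between passages by edgeR or DESeq2, with 0 at an unadjusted p under 0.05. Beside them edgeR called 0% of all hairpins in each tissue, and DESeq2 called 1 of 246 in liver. mir-23a changed by 0.18 ± 0.13 in striatum, 0.03 ± 0.04 in hypothalamus and -0.04 ± 0.05 in liver (log2, SE). Whether the cortex change differed from that of the other tissues was not tested.

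The members also differed by library run, mir-27a in every tissue. A test of run with ZT in the fit, chosen after the data were seen, called mir-27a in all 4 tissues, with adjusted p-values (edgeR) of 6.66e-25 in liver, 3.11e-15 in cortex, 4.23e-12 in hypothalamus and 1.07e-06 in striatum. It called 25.9%, 59.7%, 67.8% and 39.4% of all hairpins in these tissues, and 3, 5, 4 and 2 of the 6 members. In runs 5 and 6, grouped after their values were seen, the lowest, median and highest library of mir-27a were 646, 1240 and 1336 CPM in cortex, 639.9, 725 and 852 CPM in striatum and 545, 688 and 1046 CPM in hypothalamus. In the other runs they were 416, 718 and 887 CPM in cortex and 358, 449.8 and 626 CPM in hypothalamus, and striatum ranged from 321 to 835 CPM. In liver, run 10 had 368, 460.4 and 568 CPM and runs 11 to 14 had 490.5, 701 and 910.2 CPM. The ratio of the medians of these sets of runs was 1.52 in liver, 1.73 in cortex, 1.53 in hypothalamus and 1.62 in striatum. For mir-23a the same ratios were 0.972, 1.18, 0.912 and 0.916, nearer to 1 in each tissue.

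mir-24-1 was also called for run in striatum (adjusted p = 2.11e-07, edgeR), hypothalamus (1.74e-05) and liver (4.19e-05). In striatum its lowest, median and highest library had 10.1, 15.7 and 27.7 CPM in runs 1 to 3 and 0, 6.24 and 12.3 CPM in the other runs, a grouping made after the values were seen. mir-27b was called for run in cortex (5.09e-14), hypothalamus (2.73e-06) and liver (6.16e-10), and mir-23b only in cortex (0.00538). In liver, mir-23b, the member called for rhythm, had an adjusted p for run of 0.665 (edgeR), and mir-23a of 0.192.

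**Figure D5:**
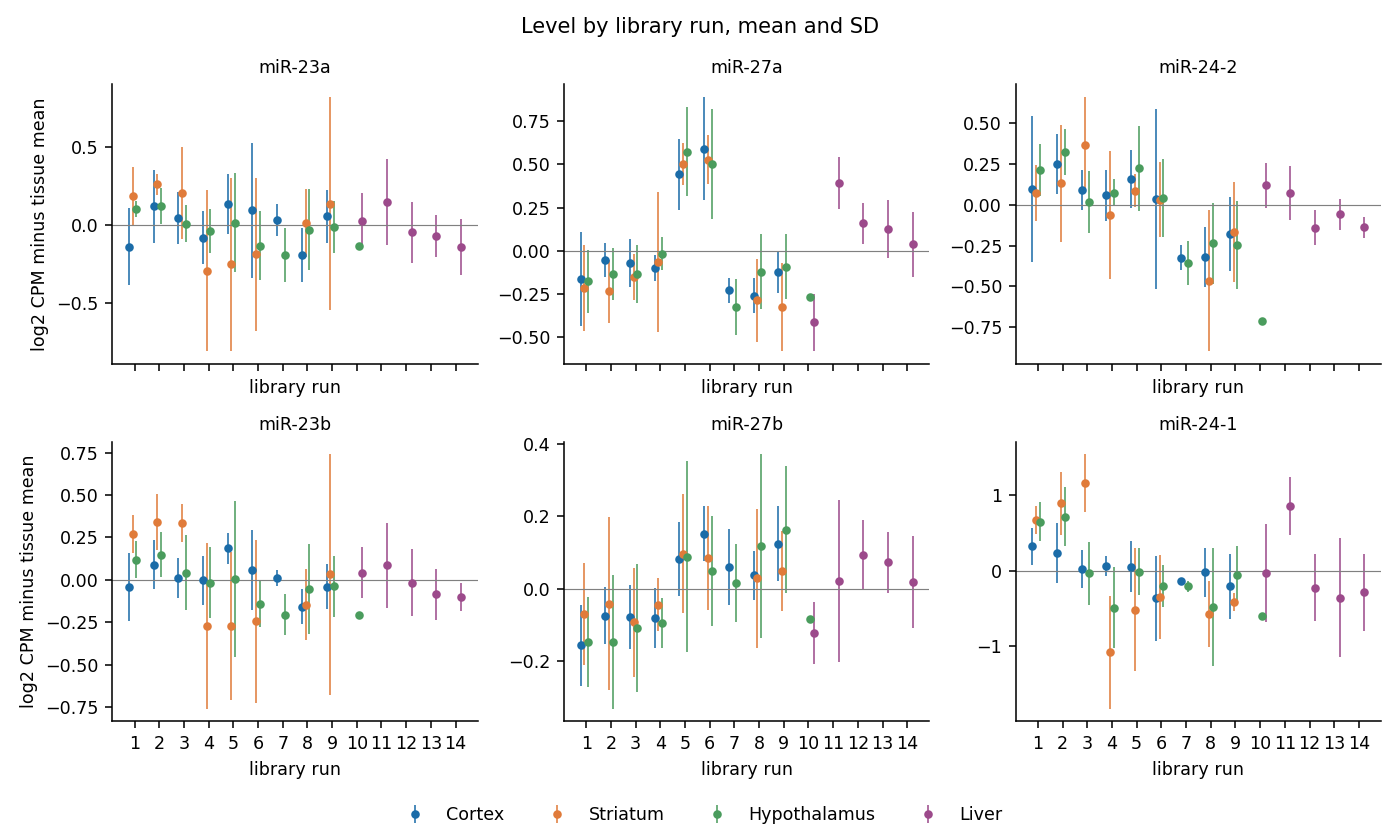
Mean (points) and SD (bars) of log2 CPM minus the tissue mean for each library run, per hairpin and tissue; the library with no mir-24-1 count is not included for that hairpin, and runs 1 to 10 hold brain and runs 10 to 14 liver libraries. mir-27a stands highest in runs 5 and 6 in all 3 brain regions and lowest in run 10 in liver, where the median was 460.4 CPM against 701 CPM in runs 11 to 14.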

How the data were processed

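The authors deposited whole-number counts per miRNA hairpin, with no normalization, in 1 table per tissue; per the submitters' processing notes STAR 2.7.3a, HTSeq 0.10.0 and the GRCm38 build were used. Trimming, the treatment of reads matching several places and strand are not given in the sources used here. Per the labels' protocols, total RNA was harvested with a miRNeasy kit and enriched fractions went into the libraries. Samples were grouped by tissue and ZT from their titles. Counts were scaled to CPM by library totals for description. Totals are given in the results; a count of 0 allows up to 3 counts, 0.573 to 2.78 CPM outside striatum, and limits cover counting error only, since the labels name no molecular identifiers. Libraries of a group were compared for duplicates: 0 pairs were identical.

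Tests used edgeR 4.0.16 in R 4.3.3 (TMM, filterByExpr, quasi-likelihood; 0.05 after Benjamini-Hochberg adjustment over all hairpins tested): a 24 h cosine and sine per tissue (rhythm), their interaction with tissue, tissue over all 273 libraries, adjusting for ZT as a factor (also requiring an absolute log2 ratio of 1), and passage with ZT as a factor. Ratios within a library (0.5 added to each count) were compared within animals by sign-flip permutation in Python 3.11.15 with numpy 2.4.6. Alternatives were DESeq2 1.42.0, its size factors, library totals, no filter, a replicate block, run as a term, other time windows, limma 3.58.1 voom blocked by animal, and leaving out libraries (10000 resamples for ratios). Scripts were tested on simulated data. Animals are biological replicates by their codes, and the labels do not say whether any were pooled. The edgeR and DESeq2 tests across tissues, with their SEs, took libraries as independent and left out the pairing by animal. The ratio tests and the voom fit of tissue differences used it.

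The members, the marker and other lists and the rules for naming hairpins were chosen with earlier results of these data known. Named hairpins were the 6 members, the 3 most alike within a tissue (members with mean CPM of at least 10) or across tissues, and listed hairpins that were called; of these, only some are given. Tests of run and values relative to the median hairpin were added after seeing the data. The vessel list held 8 hairpins, the clock list 24; marker lists for oligodendrocytes (3 hairpins) and blood cells (5) gave median sums of 5279 and 4586 CPM in cortex and 65.3 and 2504 CPM in liver.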

Additional observations from a re-analysis of the deposited data

Results flagged for a closer look

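Within groups of 4 to 10 libraries, the highest and lowest CPM of each member was set against the rest by Dixon's criterion; 96 tests gave 10 values far from their group, some of them from the same library, where chance gives about 1 in 20, or 4.80. In hypothalamus, mir-27a was high in ZT18 replicate 4 (716 CPM, others 375 to 458), ZT21 replicate 2 (1007 CPM, others 376 to 513) and ZT9 replicate 8 (1046 CPM, others 358 to 664), which are in runs 6, 5 and 6, where mir-27a was high in all brain regions. The last of these, which stood apart as a library, was also high in mir-27b (27624 CPM, others 15811 to 21633).

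In liver, ZT15 replicate 3 was high in both miR-23 hairpins, with 381 CPM of mir-23a (others at most 275) and 1069 CPM of mir-23b (others 764 to 824). Liver ZT21 replicate 2 was high in mir-23a (393 CPM, others 208 to 256) and mir-24-2 (149 CPM, others 107 to 116). Striatum ZT9 replicate 9 was high in mir-23a (690.0 CPM, others 312 to 421), and cortex ZT15 replicate 1 was low in mir-23a (649 CPM, others 768 to 833).

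The rhythm of mir-24-1 differed between striatum and liver by the interaction test (1.38 in log2 peak-to-trough, adjusted p = 0.0467, edgeR, 0.0353 to 0.345 over its 7 alternatives, of which 1 kept the call).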

How the results depend on the processing

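Counts of members past the threshold are given first. For cortex passages, 5 became 2 without the filter, 2 with the replicate block and 1 with run as a term, and 3 to 5 when 1 library was left out. For liver rhythm, 1 became 0 with library totals, no filter, ZT as a factor and each shorter time window, 3 with the replicate block (mir-27b 0.23 and mir-24-1 0.77 joined; 25 of 241 hairpins were called, not 12), and 0 to 1 when 1 library was left out. With run as a term, mir-27b in liver stood at 0.07 and mir-24-1 at 0.46, with adjusted p-values of 0.636 and 0.278 (edgeR). For hypothalamus rhythm, 0 became 1 with the replicate block (61 of 380 hairpins, not 1). For the striatum-liver rhythm difference, 1 became 0 with DESeq2's size factors, library totals, no filter, DESeq2, run as a term and without the libraries that stand apart, and 0 to 2 when 1 of the 7 libraries in groups of at most 5 was left out (2 without striatum ZT21 replicate 5). With library totals, 6 members called between hypothalamus and liver became 0, and 5 called between striatum and liver became 1, mir-24-1, which was not among the 5 and was higher in striatum. DESeq2's size factors, DESeq2, no filter and leaving out the libraries that stand apart each lost mir-24-1 between hypothalamus and liver (-0.94 to -0.57) and mir-23b between cortex and liver (-0.86 to -0.62). Between cortex and liver, mir-24-1 joined with DESeq2's size factors and DESeq2 (1.05), without those libraries (1.24) and with library totals (2.80), and mir-24-2 with run as a term (-1.38). Tissue differences were refitted without each of 22 libraries, with 0 calls lost.

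Library totals also reversed log2 ratios to liver: in cortex mir-23a 1.43, mir-27a 0.36, mir-24-2 1.30, mir-23b 0.98 and mir-27b 0.59; in striatum mir-23a 0.43, mir-23b 0.20, mir-27b 0.38 and mir-24-1 1.48; in hypothalamus mir-23a 0.33 and mir-24-1 0.95. The choice of scaling shifts all hairpins together, by construction; otherwise the cause was not tested. Of the 30 ratio tests 25 passed, and 24 to 26 under every alternative tried; mir-27b to mir-23b in striatum against liver was lost without the libraries that stand apart (0.15, adjusted permutation p = 0.0715).

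Replicate numbers in the titles do not pair the libraries by animal: 1 of 78 animals with more than 1 tissue had the same number in each. In cortex and hypothalamus they follow library number within each ZT, and the groups differ in size. So the replicate block is not independent of ZT and run there. Libraries of 1 number and different ZT correlated by 0.08 in liver, 0.12 in striatum, 0.17 in cortex and 0.18 in hypothalamus after subtracting group means, against -0.02 to -0.01 for other numbers, and 9 of 77, 8 of 46, 14 of 78 and 16 of 72 libraries were closest to their own number. Besides the counts above, the replicate block lost mir-23a between cortex and striatum (2 called, not 3) and moved no other count. That call was lost with run as a term too. Depth limits mir-24-1 most, with 2 to 38 reads per liver library.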
